A study of Mus musculus with 10 samples.

Results

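Surfactant and alveolar type 2 genes are the genes that alveolar type 2 cells use to make, pack, secrete and recycle the surfactant film of the lung. A set of 10 was listed by name: Sftpa1, Sftpb, Sftpc, Sftpd, Abca3, Napsa, Lamp3, Slc34a2, Lpcat1 and Cxcl15. Probes were assigned by the accession that the scanner files give them, and 9 of the 10 genes had a probe, 16 probes in all, among 19096 genes with a probe on the array. Lpcat1, an acyltransferase that remodels surfactant phospholipid, had no probe paired with it and is not analysed here. A gene with several probes is represented by the one with the highest mean over all 10 arrays.

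Gene expression was measured in 5 whole-lung samples of wild-type (WT) mice and in 5 lung squamous cell carcinomas (SCC). Both groups were 13 months old, of the strain labelled B6.129, untreated, and carried floxed Lkb1 alleles (Lkb1f/f). The tumour mice additionally carried CCSPiCre, a Cre recombinase driven by the promoter of the club cell secretory protein, which deletes Lkb1 in airway epithelium, so alveolar type 2 cells are not the stated target of the deletion. The study's methods call its replicates biological, while the labels number the samples without naming a mouse, and the p-values measure the spread between these samples. Total RNA came from all cells of a lung or tumour, so fewer cells of a type and less RNA per cell cannot be told apart.

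Alveolar type 2 cells line the corners of the alveoli, where they secrete surfactant and divide to replace the flat alveolar type 1 cells. Surfactant phospholipid is loaded into lamellar bodies together with the hydrophobic proteins SP-B and SP-C, and the film that forms after secretion keeps alveoli from collapsing at low volume. The collectins SP-A and SP-D are secreted as well and bind microbes. Several of these genes, among them those for SP-A, SP-B and SP-D, are also used by club cells of the airway. LAMP3 is a marker of mature dendritic cells in human, and whether dendritic cells of these mice use Lamp3 was not tested.

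Slide 1 held WT replicates 1 to 4, slide 2 held WT replicate 5 with SCC replicates 1 to 3, and slide 3 held SCC replicates 4 and 5. On SCC replicate 5, 90.2% of probes were well above background, against 71.0% to 74.5% elsewhere. SCC replicate 2 stood apart from the other tumours in the squamous keratin Krt5, at 15.60 log2 units, where the other 4 tumours were at 17.45 to 17.70 and no lung exceeded 6.63. Each of the 9 surfactant genes exceeded background clearly on every array, in the tumours as in the lungs, and no probe was flagged as saturated.

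A gene was called when its limma adjusted p was below 0.05 and its level differed 2-fold or more. None of the 9 genes was called lower, while 13.0% of all 30374 tested probes were. None was called higher either, against 9.92% of all tested probes. By adjusted p alone 6 genes fell, Napsa, Sftpb, Lamp3, Sftpa1, Cxcl15 and Slc34a2, and these 6 were also the genes with an unadjusted limma p below 0.05. The adjusted p alone passed 26.6% of all tested probes in the lower direction and 22.4% in the higher direction. With the methods' t-test, 6 of the 9 had an unadjusted p below 0.05, the general threshold of the methods. Of these, 4 were below 0.01, none with the 2-fold change that the gene list of this comparison required as well, and 5 of the 9 passed after Benjamini-Hochberg adjustment. The differences ranged from -0.98 for Napsa to 0.20 for Sftpd on the log2 scale, with a median of -0.58, where the median over all tested probes was -0.090. Lung-type surfactant transcripts thus remained measurable in every tumour. As group means, the 8 genes with a negative difference were at 50.7% (Napsa) to 89.8% (Sftpc) of the WT level. Single tumours varied more, from -1.34 log2 units for Sftpb on SCC replicate 3 to 0.44 for Abca3 on SCC replicate 2, against the WT mean.

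**Figure D1:**
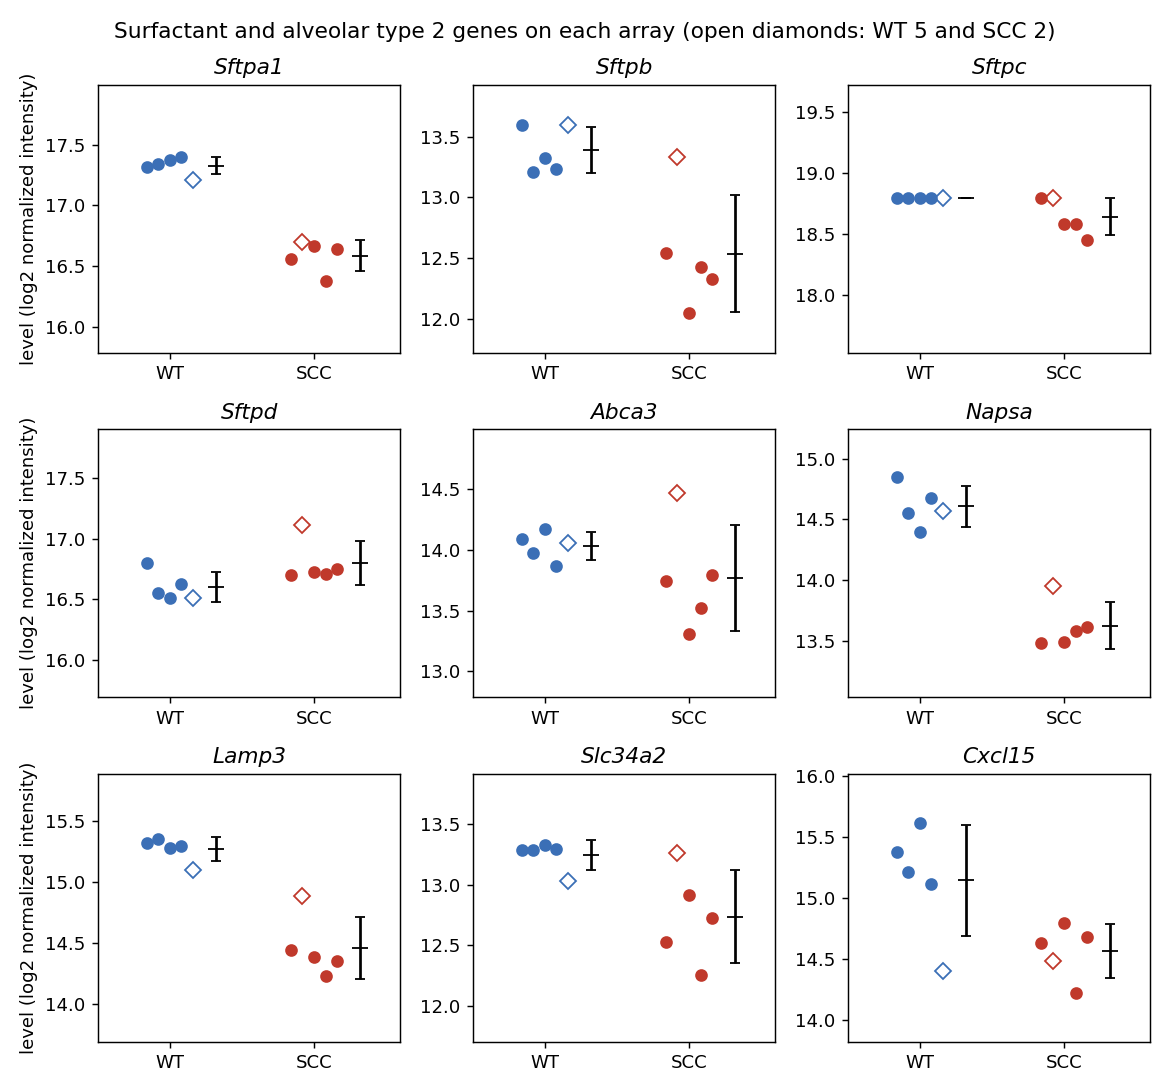
Level of each of the 9 genes on every array, as log2 quantile-normalized intensity, with WT in blue and SCC in red and the group mean and SD in black beside the points. Each panel has its own vertical range. Open diamonds mark WT replicate 5 and SCC replicate 2. The groups lie apart for Sftpa1, Napsa and Lamp3, SCC replicate 2 lies among or above the WT arrays for Sftpb, Sftpd, Abca3 and Slc34a2, and WT replicate 5 lies among the SCC arrays for Cxcl15.

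Promoters of 4 genes that fell and that held at least 1 of the motifs searched are shown, because factors that switch on surfactant genes in normal lung act near their starts. Each is the 250 bases before the gene's annotated start in RefSeq (GRCm38.p6), written 5′ to 3′ on the gene's strand, with motif matches in capitals. Windows were found for 7 of the 10 genes, and Sftpc, Sftpd and Napsa had no entry in the table used.
Sftpa1, chr14:41131538-41131787, plus strand: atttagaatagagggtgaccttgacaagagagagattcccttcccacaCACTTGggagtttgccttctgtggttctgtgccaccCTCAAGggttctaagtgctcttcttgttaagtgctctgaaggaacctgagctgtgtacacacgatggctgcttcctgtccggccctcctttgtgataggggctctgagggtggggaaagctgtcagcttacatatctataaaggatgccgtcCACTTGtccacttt
Sftpb, chr6:72304360-72304609, plus strand: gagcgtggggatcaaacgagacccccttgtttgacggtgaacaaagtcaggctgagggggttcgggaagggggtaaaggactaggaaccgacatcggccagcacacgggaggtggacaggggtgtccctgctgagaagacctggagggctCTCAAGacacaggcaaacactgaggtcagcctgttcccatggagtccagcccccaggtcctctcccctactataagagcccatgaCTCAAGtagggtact
Lamp3, chr16:19706366-19706615, minus strand: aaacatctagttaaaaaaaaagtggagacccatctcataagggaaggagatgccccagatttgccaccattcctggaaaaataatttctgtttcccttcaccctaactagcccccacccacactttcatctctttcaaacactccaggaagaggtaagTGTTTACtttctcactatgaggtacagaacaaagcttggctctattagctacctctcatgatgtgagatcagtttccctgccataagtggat
Slc34a2, chr5:53049103-53049352, plus strand: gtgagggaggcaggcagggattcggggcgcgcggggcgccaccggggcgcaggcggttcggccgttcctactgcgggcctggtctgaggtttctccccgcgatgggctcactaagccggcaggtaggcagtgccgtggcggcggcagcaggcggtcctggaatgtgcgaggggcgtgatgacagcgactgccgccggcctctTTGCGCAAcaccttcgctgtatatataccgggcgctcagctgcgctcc
The letters searched on both strands were CTCAAG and CAAGTG, which resemble sites of NKX2 proteins such as Nkx2-1, TGTTTAC, which resembles forkhead sites, and TTGCNNAA, which resembles C/EBP sites. CTCAAG and CAAGTG share their letters CAAG but did not overlap in these windows. Sftpb held CTCAAG at 100 to 95 and at 15 to 10 bases before the start. In Sftpa1 the same letters lay at 166 to 161 bases, and CAAGTG on the opposite strand at 202 to 197 and at 14 to 9 bases. Lamp3 held TGTTTAC at 92 to 86 bases, and Slc34a2 held TTGCNNAA at 48 to 41 bases, a single place that reads the same on both strands. Abca3, Lpcat1 and Cxcl15 held none of these letters in their windows. Of 32851 promoter windows of the same length, 13.3% held CTCAAG, 11.6% CAAGTG, 3.17% TGTTTAC and 9.56% TTGCNNAA, and a match is given as a description of the sequence only.

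Of the collectins, Sftpa1 fell, and Sftpd did not pass on the quantile-normalized scale. Sftpa1, which encodes SP-A, measured 17.32, 17.34, 17.37, 17.40 and 17.21 in log2 units for WT replicates 1 to 5, and 16.56, 16.70, 16.66, 16.38 and 16.64 for SCC replicates 1 to 5. Every tumour lay below every lung, and both groups were tight. The means were 17.33 ± 0.072 in WT and 16.59 ± 0.13 in SCC (SD, n = 5 each), and Sftpa1 fell by 0.74 (SE 0.088, limma adjusted p 0.000123), to 59.9% of WT. The exact permutation p was 0.00794, the smallest that 5 against 5 arrays can give. A second, dimmer Sftpa1 probe fell by 0.80.

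Sftpd, which encodes SP-D, was at 16.80, 16.55, 16.51, 16.63 and 16.51 on the WT arrays and at 16.70, 17.11, 16.72, 16.71 and 16.75 on the SCC arrays. The tumours were at or above most of the lungs, SCC replicate 2 was the highest array, and only WT replicate 1 reached into the tumour range. The means of 16.60 ± 0.12 and 16.80 ± 0.18 (SD, n = 5 each) differed by 0.20 (SE 0.11, limma adjusted p 0.155, exact permutation p 0.0556), with a 95% interval from -0.044 to 0.44. Scaling to the 75th percentile of each array, which moves the median of all tested probes from -0.090 to 0.032, put the Sftpd difference at 0.46 (adjusted p 0.00165), and in that scaling Sftpd rose. A fall of Sftpd to the extent of Sftpa1 lies outside its interval in either scaling.

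Of the genes for the hydrophobic proteins, Sftpb fell and Sftpc did not pass. Sftpb, which encodes SP-B, without which lamellar bodies do not form properly, was at 13.60, 13.21, 13.32, 13.23 and 13.59 on the WT arrays and at 12.54, 13.33, 12.05, 12.43 and 12.33 on the SCC arrays. SCC replicate 2 lay inside the WT range, and the other 4 tumours lay below all lungs. From 13.39 ± 0.19 in WT to 12.54 ± 0.48 in SCC (SD, n = 5 each), Sftpb fell by 0.86 (SE 0.22, limma adjusted p 0.00954, exact permutation p 0.0317), to 55.3% of WT. Without SCC replicate 2 it fell by 1.05 (adjusted p 0.000150), past the 2-fold mark.

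Sftpc, which encodes SP-C and is the most specific marker of alveolar type 2 cells in this list, was the brightest probe of the array on all 5 WT arrays and on SCC replicates 1 and 2, and ranked 2, 2 and 4 on SCC replicates 3, 4 and 5. Quantile normalization gives the brightest probe of every array the same value, so its 5 WT values were all 18.80 with an SD of 0, and this group has no spread of its own. The SCC values were 18.80, 18.80, 18.58, 18.58 and 18.45. Before normalization, log2 of the processed signal was 18.92, 18.90, 18.76, 18.69 and 18.94 in WT and 18.79, 18.84, 18.58, 18.71 and 18.59 in SCC, and these groups overlapped. The normalized values differed by -0.16 (SE 0.089, limma adjusted p 0.173, exact permutation p 0.167), with a 95% interval from -0.36 to 0.044. Under 75th percentile scaling Sftpc differed by -0.060 (adjusted p 0.624). The interval rests on a WT spread that the normalization set to 0, and the linearity of the signal at such brightness was not tested.

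Among genes of the lamellar body, Lamp3 fell and Abca3 depended on 1 tumour. Lamp3, a membrane protein of lysosomes and lamellar bodies, was at 15.32, 15.35, 15.28, 15.29 and 15.10 on the WT arrays and at 14.44, 14.89, 14.38, 14.23 and 14.35 on the SCC arrays. The groups did not overlap, with SCC replicate 2 the nearest tumour and WT replicate 5 the nearest lung. The means were 15.27 ± 0.10 and 14.46 ± 0.25 (SD, n = 5 each), and Lamp3 fell by 0.81 (SE 0.13, limma adjusted p 0.000643, exact permutation p 0.00794), to 57.0% of WT. The other Lamp3 probes fell by 0.96 and 0.80.

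Abca3, the transporter that carries phospholipid into lamellar bodies, was at 14.09, 13.97, 14.17, 13.87 and 14.06 on the WT arrays and at 13.74, 14.47, 13.31, 13.52 and 13.79 on the SCC arrays. SCC replicate 2 was above every lung and the other 4 tumours were below every lung. The groups differed by -0.26 (SE 0.19, limma adjusted p 0.279, exact permutation p 0.222), with a 95% interval from -0.70 to 0.17. Without SCC replicate 2 the difference was -0.44 and passed (adjusted p 0.0102). The other Abca3 probes differed by -0.027 and 0.023.

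Napsa, an aspartic protease that takes part in cutting the SP-B precursor, showed the largest fall among the 9 genes. It was at 14.85, 14.55, 14.39, 14.68 and 14.57 on the WT arrays and at 13.49, 13.96, 13.50, 13.58 and 13.61 on the SCC arrays, with all tumours below all lungs. From 14.61 ± 0.17 to 13.63 ± 0.19 (SD, n = 5 each), Napsa fell by 0.98 (SE 0.12, limma adjusted p 0.000161, exact permutation p 0.00794), to 50.7% of WT. It passed the 2-fold mark without SCC replicate 2 (-1.06) and without WT replicate 3 (-1.03). Sftpa1, Lamp3 and Napsa were the 3 genes whose groups did not overlap in the lower direction, as was the case for 21.0% of all tested probes, and none lay without overlap in the higher direction (16.3% of all tested probes).

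Slc34a2, the sodium phosphate cotransporter of the alveolar type 2 cell surface, was at 13.29, 13.28, 13.33, 13.29 and 13.03 on the WT arrays and at 12.53, 13.26, 12.92, 12.25 and 12.72 on the SCC arrays. SCC replicate 2 was inside the WT range and the other tumours were below it. The means of 13.24 ± 0.12 and 12.74 ± 0.38 (SD, n = 5 each) differed by -0.51 (SE 0.17, limma adjusted p 0.0345, exact permutation p 0.0159), which is 70.2% of WT. A second probe differed by -0.16 without passing (adjusted p 0.292). Slc34a2 no longer passed without WT replicate 1, 2, 3 or 4 or SCC replicate 1 or 4, with differences from -0.50 to -0.39 and adjusted p from 0.0660 to 0.0784.

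Cxcl15, also called lungkine, is a chemokine that lung epithelium secretes and that attracts neutrophils. It was at 15.38, 15.21, 15.62, 15.11 and 14.40 on the WT arrays and at 14.63, 14.48, 14.79, 14.22 and 14.68 on the SCC arrays. WT replicate 5, the one lung on slide 2, lay among the tumours, and the other 4 lungs lay above them all. The means of 15.14 ± 0.46 and 14.56 ± 0.22 (SD, n = 5 each) differed by -0.58 (SE 0.22, limma adjusted p 0.0474, exact permutation p 0.0397), and a second probe by -0.59 (adjusted p 0.0310). On slide 2 alone the difference was 0.24, the opposite sign, and the second probe differed by -0.0021. Without WT replicate 5 the difference was -0.77 (adjusted p 0.00398), and without any one of the other 9 arrays it did not pass, with differences from -0.64 to -0.46 and adjusted p from 0.0521 to 0.109. The fall of Cxcl15 therefore holds between slide 1 lungs and the tumours and was not seen on the slide that held both groups.

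Slide 2 held 1 lung and 3 tumours and was the only slide with both groups. There Napsa differed by -0.92, Sftpb by -0.95, Sftpa1 by -0.57, Lamp3 by -0.53, Abca3 by -0.22, Slc34a2 by -0.13, Sftpc by -0.072, Sftpd by 0.33 and Cxcl15 by 0.24. With slide as a fixed term in the fit, which rests on the same 4 arrays for these values, Napsa alone passed (adjusted p 0.0495), and Sftpa1 (0.0570), Lamp3 (0.143), Sftpb (0.175) and Slc34a2 (0.803) did not. Napsa, Sftpb, Sftpa1 and Lamp3 kept their direction on that slide by more than 0.5 log2 units, and the other 5 did not reach that size. Of the other probes, those of Lamp3 differed there by -0.40 and -0.20 and that of Sftpa1 by -0.60. Other probes of Slc34a2 (0.12) and Abca3 (0.42 and 0.15) had the opposite sign on slide 2.

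**Figure D2:**
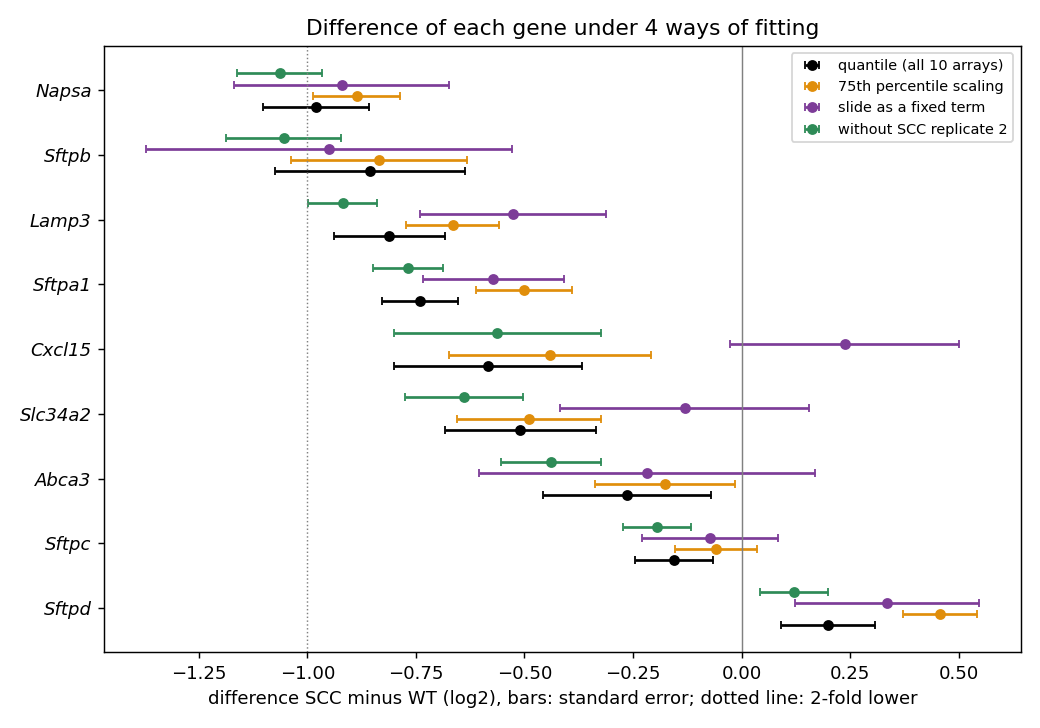
Difference SCC minus WT of each gene in log2 units with its standard error, under quantile normalization of all 10 arrays, 75th percentile scaling, slide as a fixed term, and without SCC replicate 2. The dotted line marks a 2-fold lower level. Napsa and Sftpb stay near it in all 4 fits, Sftpd lies above 0 in all 4, and Cxcl15 crosses 0 with slide as a fixed term.

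The tumours were not alike in how far the genes lay from the lungs. Relative to the mean of the WT arrays, the median over the 9 genes was -0.95 on SCC replicate 4, -0.72 on SCC replicate 1, -0.67 on SCC replicate 3 and -0.52 on SCC replicate 5. On SCC replicate 2 it was -0.058, with 5 of 9 genes below the WT mean, where the other tumours had 7 or 8. That array was near the other tumours for Sftpa1 and Cxcl15 and near or above the lungs for Sftpb, Abca3, Slc34a2 and Sftpd. Sftpd was the gene with the highest position relative to WT on every one of the 5 tumours. WT replicate 5 lay at a median of -0.088, and its lowest gene was Cxcl15 at -0.75.

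**Figure D3:**
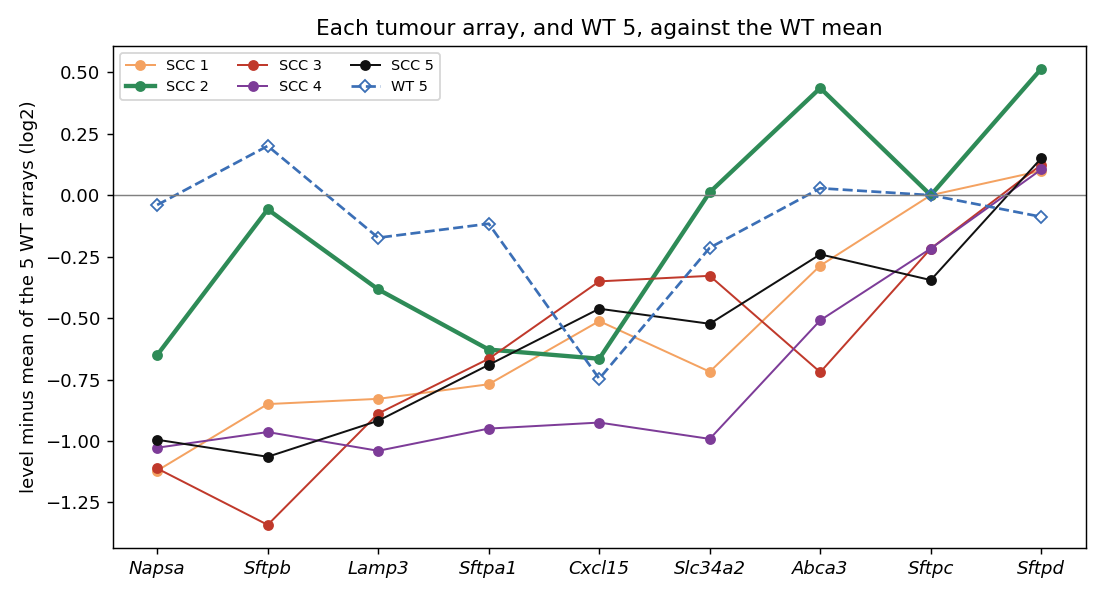
Level of each gene on each SCC array and on WT replicate 5, minus the mean of the 5 WT arrays, in log2 units, with genes ordered by their mean difference. SCC replicate 2 (thick green) runs above the other tumours for 6 of the 9 genes by at least 0.25 log2 units, and every tumour is above 0 for Sftpd.

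Whether the genes moved by unequal amounts was examined within arrays, as the log2 ratio of each gene to Sftpc before normalization, in which the scaling of an array cancels. Each of 8 such ratios was given an unadjusted exact permutation p (two-sided). The ratio to Sftpc differed between SCC and WT by -0.83 for Napsa, -0.44 for Sftpa1 and 0.52 for Sftpd (exact p = 0.00794 for each). These 3 ratios did not overlap between groups. After normexp background correction and in the deposited log2 table they were -0.84 and -0.87 for Napsa, -0.60 and -0.61 for Sftpa1, and smaller for Sftpd, at 0.32 and 0.32. The ratios of Sftpb (-0.77, exact p = 0.0317) and Lamp3 (-0.61, exact p = 0.0159) were lower with some overlap, and that of Sftpb did not pass without SCC replicate 1, 3 or 5 (-0.73, -0.64 and -0.73, exact p = 0.0556 each). For Slc34a2 (-0.43, exact p = 0.0714), Cxcl15 (-0.38, exact p = 0.175) and Abca3 (-0.12, exact p = 0.579) the ratio did not pass with all 10 arrays and the processed signal. The ratio of Slc34a2 passed, with an exact p of 0.0476 each, after normexp background correction (-0.37) and in the deposited log2 table (-0.40). Without SCC replicate 2 the ratios of Slc34a2 (-0.57, exact p = 0.0238) and Abca3 (-0.28, exact p = 0.0476) passed, and without WT replicate 5 that of Cxcl15 did (-0.59, exact p = 0.00794). On slide 2 alone, the ratio to Sftpc differed by -0.83 for Sftpb, -0.73 for Napsa and 0.65 for Sftpd, and by smaller amounts for Lamp3 (-0.30), Sftpa1 (-0.28), Abca3 (-0.030) and Slc34a2 (-0.018). The ratio of Cxcl15 was 0.47 there, the opposite sign to that over all arrays. Relative to the Sftpc signal of the same array, the Sftpd signal was thus higher and the Sftpa1 and Napsa signals were lower in SCC, by less for Sftpa1 on slide 2. All 8 ratios share the Sftpc signal, whose linearity at such brightness was not tested.

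Lists of other alveolar, vascular and airway cells had lower medians than the surfactant genes. Of 13 alveolar type 1 markers with a probe, 12 were called lower, with a median difference of -2.02, among them Akap5 (-2.53), Clic5 (-2.50) and the caveolar protein gene Cav1 (-2.47). The exception was the water channel gene Aqp5, named after its value was seen, which was higher by 0.64. Of 8 endothelial markers, 7 were called lower and all 8 passed, with a median of -2.42 and the largest falls in Tek (-2.89), Ramp2 (-2.85) and the VEGF receptor gene Kdr (-2.76). Of 10 club cell markers, 5 were called lower and 1 higher, with a median of -1.10. Among those called lower were Cyp4b1 (-3.94), Aldh1a1 (-2.38), Gsta3 (-2.30) and Scgb1a1 (-1.33), whose promoter drives the Cre. The gene called higher was Upk3a (1.64), and by adjusted p alone Gabrp (1.00) rose too, both named after their values were seen. The median of the 9 surfactant genes, -0.58, lay closer to that of all tested probes than those of these 3 lists. Fitting slide as a term gave 10 alveolar type 1, 6 endothelial and 1 club cell marker as lower calls. Over all tested probes and both directions, that fit gave 2989 calls, against 6954 without the term. The counts with slide fitted that follow for other lists stand against the same totals.

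The mean level of the 9 surfactant genes was between 15.25 and 15.49 on the lungs, 15.22 for SCC replicate 2 and 14.65 to 14.82 for the other tumours. The mean of the alveolar type 1 markers was between 14.68 and 14.87 on the lungs, 13.46 for SCC replicate 2 and 12.73 to 13.06 for the other tumours. For the endothelial markers these values were 13.93 to 14.13, 12.57, and 11.46 to 11.79, and for the club cell markers 14.55 to 15.02, 14.53, and 12.89 to 14.18. SCC replicate 2 was thus the tumour with the highest level of all 4 lists. How far normal lung tissue in the tumour samples sets the surfactant levels was not tested.

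**Figure D4:**
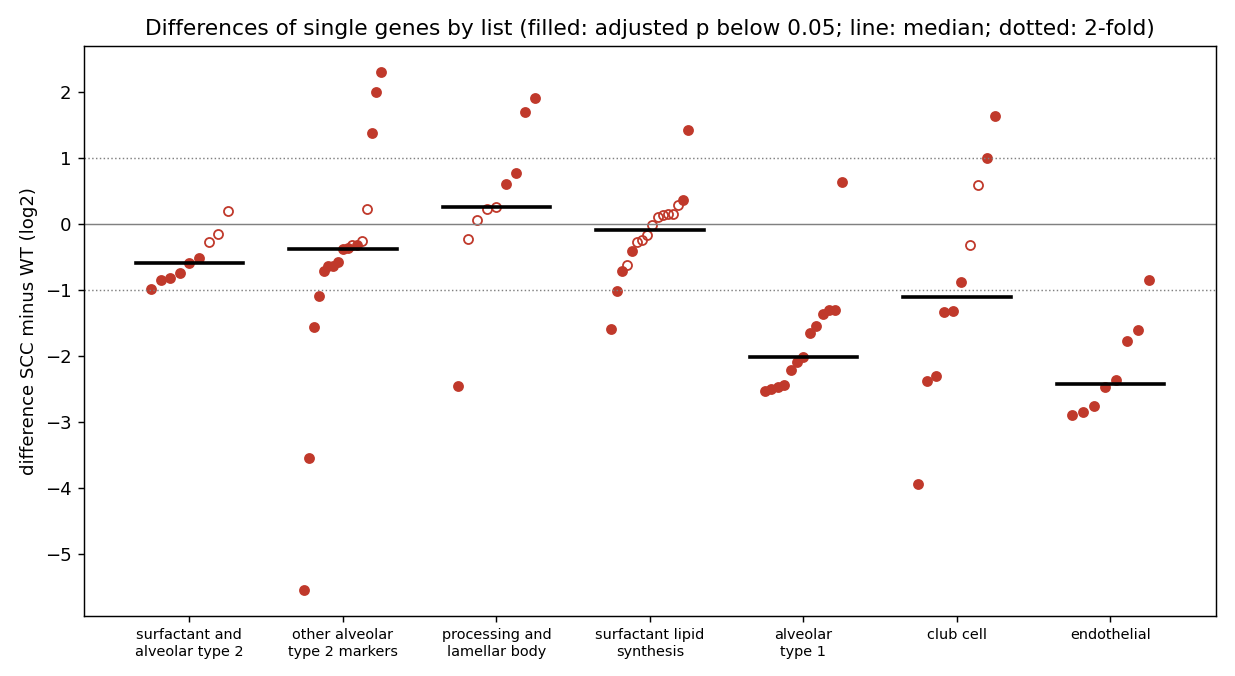
Difference SCC minus WT in log2 units of every tested gene in 7 lists, 1 point per gene, filled where the limma adjusted p was below 0.05, with the median of each list as a bar and dotted lines at a 2-fold difference. The 9 surfactant genes lie between -0.98 and 0.20, and 12 of the 13 alveolar type 1 markers lie below -1.

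Other markers of alveolar type 2 cells spread more widely than the 9 genes. Of 17 with a probe, 4 were called lower and 3 higher, and by adjusted p alone 11 fell and 3 rose, with a median of -0.38. The largest falls were in Bex2 (-5.55) and in Acoxl (-3.55), a gene related to acyl-CoA oxidases. Fitting slide as a term gave 1 lower and 3 higher calls. Bex2 lay at 13.03 to 13.59 in the lungs and was lower in every tumour, at 10.80 for SCC replicate 2 and 5.54 to 7.65 for the rest. Il33, an alarmin cytokine gene that alveolar type 2 cells of the mouse express, rose by 2.31, and the other genes called higher, named after their values were seen, were Chil1 (2.00) and the mucin gene Muc1 (1.38). The remaining genes called lower, also named after their values were seen, were Mlc1 (-1.56) and Lgi3 (-1.09).

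The transcription factors that maintain the lineage moved in both directions. Of 7, 2 were called lower, 2 higher, and the median was -0.21. Nkx2-1, which encodes TTF1 and drives surfactant genes in normal lung, was between 12.42 and 12.62 on the lungs and between 12.17 and 12.44 on the tumours, a difference of -0.21 that did not pass (adjusted p 0.0635). Klf5 rose by 2.35, from 10.46 to 10.91 on the lungs to 12.91 to 13.29 on the tumours. Etv5, an ETS factor needed for alveolar type 2 identity (-1.77), and Gata6 (-1.61) fell. By adjusted p alone the forkhead gene Foxa2 (-0.85) also fell, and Foxa1 (1.48) was the other gene called higher, both named after their values were seen. When slide was fitted, none was called lower and 1 higher.

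A further list of surfactant processing and lamellar body genes, which leaves out Napsa, Lamp3 and Abca3, held genes that fell and genes that rose. Of 9, Adgrf5, a receptor that limits the surfactant pool, was called lower (-2.46), and 2 were called higher, P2ry2 (1.92), a nucleotide receptor that triggers surfactant secretion, and Rab38 (1.70), a small GTPase of lysosome-related organelles. By adjusted p alone Lyst (0.78) and Mfsd2a (0.60), named after their values were seen, rose too. The median was 0.25. When slide was fitted, 1 was called lower and none higher.

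Of 16 genes of surfactant lipid synthesis 10 did not pass, and the median was -0.093, near that of all tested probes. Lpin1, a phosphatidate phosphatase (-1.59), and Insig1, a regulator of sterol-dependent transcription (-1.01), fell, and the fatty acid elongase gene Elovl6 rose by 1.42. Insig1 lay near the 2-fold mark, so the count of 2 called lower became 1 under 75th percentile scaling, under normexp background correction, with slide as a fixed term, and without WT replicate 2, 3 or 4 or SCC replicate 1, 3 or 4. Of 9 genes of surfactant clearance, Prdx6, an enzyme with phospholipase activity on surfactant, was called lower (-1.61), and Csf2rb (1.55) and Csf2rb2 (1.52), receptor chains for GM-CSF and related cytokines, were called higher. None of these 3 was called when slide was fitted.

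The clearance genes are also used by immune cells, as is LAMP3 in human. Of 8 mature dendritic cell markers 6 were tested, and Fscn1 (2.01) and Relb (0.56, named after its value was seen) rose while Ccr7 (-1.99) and Ccl17 (-0.59) fell, with a median of 0.22 over the 6. Their mean level was between 9.32 and 9.75 on the lungs and between 9.42 and 9.85 on the tumours. Of 7 alveolar macrophage markers, 2 were called lower and 3 higher, with Krt79 (-3.56), Car4 (-2.62) and Plet1 (1.88) the largest, and their mean level was 12.71 to 13.05 on the lungs, 12.04 for SCC replicate 2 and 12.82 to 13.12 on the other tumours. The part of these cells in the surfactant gene values was not tested.

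Cxcl15 belongs to the CXC chemokines that attract neutrophils, and other genes of that kind were listed beside it. That list held 4 ligands and the receptor gene Cxcr2. Cxcl1, Cxcl2 and Cxcr2 were called higher, as were 9.92% of all tested probes. Cxcl1 and Cxcr2 are named after their values were seen. Cxcl2 was at 3.28 to 6.68 on the lungs, 5.49 on SCC replicate 2 and 8.87 to 9.94 on the other tumours. For Cxcl3 and Cxcl5 only 2 of the 5 WT arrays were well above background. They entered the fit through the tumours alone, so no difference and no call is given for them. When slide was fitted, not all of Cxcl1, Cxcl2 and Cxcr2 were called, and Cxcl15 itself differed by 0.24 without passing (limma adjusted p 0.596).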

How the data were processed

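RNA from 5 WT lungs and 5 SCCs had been hybridised to single-colour Agilent arrays, 1 per sample. Sample titles gave the group and the replicate number. Images had been read by the authors with Agilent Feature Extraction 12, per the labels, and the deposited scanner files hold a background-subtracted processed intensity for each spot, with flags. The authors also deposited a table of log2 values. It correlated with the normalized values computed here at r of at least 0.9999 and served as an alternative.

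Outlier-flagged and control spots were left out, spots of a probe averaged, and 41174 probes quantile-normalized, as the methods state. The 30374 probes well above background (at least 0.5 of their spots) on at least 4 of 5 arrays of a group entered lmFit and eBayes of limma 3.58.1 (R 4.3.3), two-sided and without covariates, in place of the stated analysis of variance, with Benjamini-Hochberg adjustment over them. A call needed an adjusted p below 0.05 and a 2-fold difference. Single values were compared with an exact permutation test over 252 splits. The fit was tested on simulated data. The 10 arrays limit the precision.

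Accessions were paired with symbols, without versions, through a table of RefSeq genes (28223 probes, 19096 genes). Stk11 (Lkb1) and Lpcat1 are not analysed here. The genes, lists and tests were chosen with earlier results of these data known. Named beyond the 9 genes are at most the 3 largest differences that passed in each list, Nkx2-1 and Scgb1a1. Exceptions are marked. Probes are set against each other only as brightness ranks and as within-array ratios, of which the difference between groups is read. Alternatives were 75th percentile scaling, normexp with an offset of 50, other filters and probes, slide or replicate number as a block, array weights, the methods' t-test and leaving out arrays.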

Additional observations from a re-analysis of the deposited data

Results flagged for a closer look

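For the 9 surfactant genes and the genes that the naming rule took from the other lists, the distance from the extreme array to the next one was taken as a share of the spread of the 5 values. It was above 0.71 in 22 of 93 cases, where a case is a gene in a group. Genes named after their values were seen were not examined. By chance about 1 case in 20 would be, and genes share these arrays. Of the 22, 15 were on SCC replicate 2, and 4 were among the 17 cases of the surfactant genes, where Sftpc in WT had no range.

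Among the surfactant genes, SCC replicate 2 stood above the other tumours for Sftpd (gap 0.876) and Napsa (0.733), and WT replicate 5 stood below the other lungs for Slc34a2 (0.845) and Lamp3 (0.718). Slc34a2 was at 13.03 on WT replicate 5 and between 13.28 and 13.33 on the other lungs. WT replicate 5 is the only lung on slide 2.

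Among genes of the other lists, SCC replicate 2 was apart for Gata6 (0.711), Rab38 (0.711), P2ry2 (0.822), Fscn1 (0.860), Ccl17 (0.749), Car4 (0.788) and Tek (0.857). It was also apart for the squamous genes Pkp1 (0.885), Krt6a (0.890) and Krt5 (0.879) and for Cxcl5 (0.827), Cxcl3 (0.828) and Cxcl2 (0.759). The other gaps were Elovl6 on SCC replicate 4 (0.738), Krt79 on SCC replicate 5 (0.922), Aldh1a1 on WT replicate 4 (0.885), Tek on WT replicate 1 (0.852) and Kdr on WT replicate 5 (0.741).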

How the results depend on the processing

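The combination of 75th percentile scaling without SCC replicate 2 was chosen after the data had been seen. Sftpc did not pass under any alternative run, and Napsa passed under all that had a test. When slide was a fixed term, 1 gene passed in the lower direction (Napsa), and Sftpa1 (-0.57, adjusted p 0.0570), Sftpb (-0.95, 0.175), Lamp3 (-0.53, 0.143) and Slc34a2 (-0.13, 0.803) did not, while Cxcl15 changed sign (0.24, 0.596). That fit rests on slide 2 for these values, where 1 lung stands for WT. On slide 2 alone, without a test, the same values were -0.57 for Sftpa1, -0.53 for Lamp3 and 0.24 for Cxcl15.

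With 75th percentile scaling Sftpd passed as the 1 higher gene (0.46), also without SCC replicate 2 (0.45, again 1 gene), and Cxcl15 did not pass (-0.44, and -0.38 without SCC replicate 2). Cxcl15 also failed to pass with no filter on dim probes (-0.58, adjusted p 0.0665), by the methods' t-test (-0.58, adjusted p 0.0663) and without SCC replicates 2 and 5 (-0.60), and ranged from -0.77 to -0.46 with an array left out. Slc34a2 ranged from -0.64 to -0.39 with an array left out, and its second probe (-0.16) did not pass. Abca3 passed with array quality weights (-0.41), without SCC replicates 2 and 5 (-0.51) and with 75th percentile scaling without SCC replicate 2 (-0.31). With an array left out it ranged from -0.44 to -0.15 and passed only without SCC replicate 2. With its second probe, its ratio to Sftpc changed sign (0.020).

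The count of genes called lower, 0 of 9, became 1 with array quality weights (Napsa), 1 with 75th percentile scaling without SCC replicate 2 (Sftpb), 2 without SCC replicates 2 and 5 (Sftpb and Napsa), and 6 by adjusted p alone. With an array left out it was 0 to 2, with 1 without WT replicate 3 (Napsa) and 2 without SCC replicate 2 (Sftpb and Napsa). Over all probes, 6954 were called, 3969 with normexp, 2989 with slide as a fixed term and 14878 by adjusted p alone. The last drops the fold requirement, and for the others the cause was not tested. Leaving out an array gave 6385 to 8135 calls. Of the counts of called genes in the other lists, 508 stayed within 1.5 times and 44 moved, mostly with slide as a fixed term or by adjusted p alone.

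Replicate numbers did not pair the samples. Deviations of same-numbered arrays correlated between -0.10 and 0.0087, and 0 of the arrays correlated best with their own number. With the replicate block 6571 probes were called, and Slc34a2 (-0.51, adjusted p 0.0602) and Cxcl15 (-0.58, adjusted p 0.0648) did not pass. The correlation within slides, estimated for a random slide block, was -0.017.

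With all 10 arrays and quantile normalization, the differences of all 9 genes are below 2-fold, and Sftpc lies at the top of the scale. SCC replicate 2 moves several of them, and WT replicate 5 moves mainly Cxcl15.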

Other observations

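Over 15503 other genes and the 10 arrays, the profiles nearest to that of Sftpc, by root mean square difference after centring on the WT mean, were those of Pepd (0.0412 log2 units), Cebpz, Nup88, Mrpl23 and Dlg1 (0.0655). The Sftpc profile is nearly flat, with all WT values equal after normalization.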
